A study of Mus musculus with 18 samples.

Results

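The genes described here are 9 transcription factors tied to the identity of macrophages, Spi1, Cebpa, Cebpb, Cebpd, Maf, Mef2c, Klf2, Klf4 and Nr4a1, chosen by name from the 20615 genes of an RNA-seq table of bone marrow-derived macrophages (BMDMs). To obtain BMDMs, marrow cells are cultured in medium conditioned by L929 cells, which supplies M-CSF, the growth factor that turns them into macrophages. They came from B6 (C57BL/6) mice and from C57BL/6.NOD-Aec1Aec2 mice, here called SjSS, a model of Sjögren's syndrome in which intervals of the NOD genome were bred onto the B6 background, and the mice were 7 to 12 weeks old and female. BMDMs of each strain were untreated (control), fed apoptotic cells (AC) or stimulated with CpG, a DNA oligonucleotide sensed by innate immune receptors, with 3 samples in each of the 6 groups. The ACs were mouse thymocytes killed with dexamethasone, given at 5 per BMDM for 2 h and washed off, and the cells were then kept for a further 3 h by the labels and for longer by the study's methods. CpG was given at 1 µM for 6 h, so that the time of exposure differed between the treatments. The strain of the thymocytes given to each sample was not stated, so it cannot be told apart from the strain of the BMDMs if each strain received its own.

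PU.1, the product of Spi1, is the factor that opens much of the regulatory DNA of myeloid cells, and it acts there with C/EBP proteins. C/EBPα is best known for its role in myeloid differentiation, whereas C/EBPβ and C/EBPδ rise in many acute inflammatory responses. Maf (c-Maf) restrains self-renewal in macrophages and drives genes such as Il10, MEF2C is a factor of myeloid and lymphoid development, Klf2 and Klf4 are zinc finger factors that temper inflammatory activation, and Nr4a1 (Nur77) is an orphan nuclear receptor induced rapidly by many stimuli. Whether ACs and CpG moved these genes, and whether they did so alike in both strains, was the question put to the table.

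The estimated counts summed to between 30688336 and 57139662 in a sample, with a median of 47912525. All 10 macrophage markers on the list used to check the cell type were detected in every group. Their summed levels were 19353 to 27637 CPM over the 18 samples. CPM are counts scaled to library totals that were first multiplied by TMM factors. These factors ran from 0.833 in AC treated SjSS to 1.13 in control SjSS samples, so CPM are not shares of the plain library total. Of 15 thymocyte and T cell markers, 4 passed the filter on low counts, and the summed level of all 15 was 5.24 to 6.22 CPM in AC treated B6 and 14.9 to 19.0 CPM in AC treated SjSS BMDMs, against 8.49 to 10.8 and 10.6 to 12.5 CPM in the controls. Most of that sum was Cd4, and the markers at low counts went both ways. Lck had 39 counts over the 3 AC treated B6 samples and 86 over the 3 AC treated SjSS samples. Lat had 72 and 127 and Cd3g 8 and 14 in these groups. The controls of these 3 genes had 21, 106 and 4 counts in B6 and 21, 81 and 4 in SjSS. Other markers did not follow the sum. Rag1, a gene of immature lymphocytes, had 0 counts in all controls, 24 over the 3 AC treated B6 samples and 3 over the 3 AC treated SjSS samples. Dntt had 18 and 1, Cd8a 26 and 10, Cd8b1 14 and 9, Tcf7 68 and 48 and Themis 10 and 0 in the same AC treated groups, against 0, 1, 2, 30 and 1 in B6 controls and 2, 12, 4, 24 and 1 in SjSS controls. The summed level of 4 fibroblast markers was 35.2 to 122 CPM in B6 samples and 140 to 219 CPM in SjSS samples, nearly all of it Col1a1 and Col1a2. Of the others, Pdgfra did not differ between strains (adjusted p of at least 0.452) and Dcn did so only with ACs (0.0214). The 3 endothelial markers in the table, of 4 on the list, summed to 18.4 to 32.3 CPM in B6 and 32.7 to 56.2 CPM in SjSS, most of it Pecam1. These sums bear on every difference between strains below, and their part in it was not tested. The RNA was taken from whole cultures, so fewer cells of a type and less RNA per cell cannot be told apart.

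All 9 factors passed the filter and were tested among 15789 genes. None lies on chromosome 1 or 3. In the deposited mm10 table, Spi1 is at chr2:91082390-91115756, Cebpa at chr7:35119293-35121928, Cebpb at chr2:167688915-167690418, Cebpd at chr16:15887286-15891031 and Maf at chr8:115682942-115707794. Mef2c is at chr13:83504034-83667080, Klf2 at chr8:72319033-72321656, Klf4 at chr4:55527143-55532466 and Nr4a1 at chr15:101266846-101274792. Cebpa, Cebpb and Cebpd each have a single exon block in the GENCODE M21 annotation of the same build, and each overlaps a gene on the opposite strand. Cebpa shares 51 exonic bases with Gm45091, Cebpb 312 with Tmem189, Cebpd 562 with Spidr and Maf 440 with Gm15655. Whether reads were counted by strand is not given in the sources used here, so reads in these stretches cannot be told apart. Gm45091 had at most 0.429 CPM as a group mean and was lower in all 4 treatment responses, as Cebpa was. Spidr had between 11.8 and 18.8 CPM, was higher with CpG in both strains (log2 0.50 and 0.32) and was lower in SjSS than in B6 with CpG (-0.36, adjusted p = 0.00233), as Cebpd was. Tmem189 had 136 to 181 CPM and was lower with both treatments in both strains, opposite to Cebpb.

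The promoters are shown for the 4 factors that passed the fold threshold in at least 1 treatment response and have an entry in the RefSeq table (GRCm38.p6), Cebpa, Mef2c, Klf2 and Klf4, and for Nr4a1, added after its values were seen because its levels ran so close to those of Klf4. Each stretch ends just before the annotated start and runs 5′ to 3′ along the gene, and capitals mark letters matching one of the motifs searched on both strands. They are chr7:35119043-35119292 (+) for Cebpa, chr13:83503784-83504033 (+) for the first of 3 Mef2c starts, chr8:72318812-72319032 (+) for Klf2, which stops where the gene starts in the deposited table, somewhat before the RefSeq start, chr4:55532476-55532725 (−) for Klf4 and chr15:101266596-101266845 (+) for Nr4a1.
Cebpa: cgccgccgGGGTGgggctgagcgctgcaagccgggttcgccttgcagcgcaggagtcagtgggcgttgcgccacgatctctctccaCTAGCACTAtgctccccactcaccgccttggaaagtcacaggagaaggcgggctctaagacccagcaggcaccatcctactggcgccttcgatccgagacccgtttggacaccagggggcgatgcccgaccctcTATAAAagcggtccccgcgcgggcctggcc
Mef2c: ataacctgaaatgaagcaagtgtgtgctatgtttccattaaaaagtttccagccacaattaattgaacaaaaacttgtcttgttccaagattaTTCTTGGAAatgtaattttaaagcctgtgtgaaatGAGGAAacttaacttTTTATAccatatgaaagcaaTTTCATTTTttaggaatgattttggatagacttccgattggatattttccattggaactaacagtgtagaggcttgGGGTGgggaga
Klf2: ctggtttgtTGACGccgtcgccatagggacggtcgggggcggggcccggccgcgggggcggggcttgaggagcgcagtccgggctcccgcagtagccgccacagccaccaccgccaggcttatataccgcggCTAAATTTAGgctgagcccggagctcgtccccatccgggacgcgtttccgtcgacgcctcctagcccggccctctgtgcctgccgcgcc
Klf4: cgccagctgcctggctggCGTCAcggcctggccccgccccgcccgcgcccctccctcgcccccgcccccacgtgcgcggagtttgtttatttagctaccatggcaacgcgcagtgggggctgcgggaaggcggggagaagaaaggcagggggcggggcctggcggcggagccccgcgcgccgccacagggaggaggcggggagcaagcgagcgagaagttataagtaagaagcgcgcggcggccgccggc
Nr4a1: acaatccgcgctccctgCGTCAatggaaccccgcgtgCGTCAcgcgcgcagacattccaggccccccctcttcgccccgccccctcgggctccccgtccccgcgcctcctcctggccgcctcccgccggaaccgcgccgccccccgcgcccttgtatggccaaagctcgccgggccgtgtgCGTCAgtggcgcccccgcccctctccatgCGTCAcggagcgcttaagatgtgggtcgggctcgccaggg

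The motifs were CRE (TGACGTCA) and its core (TGACG), C/EBP (TTGCNNAA), the PU.1 core (GAGGAA), KLF (CACCC), MEF2 (TANNNNTAG), MAF (TGCTGAC), NF-kB (GGGANTTCC), STAT (TTCNNNGAA), ISRE (TTTCNNTTT) and the TATA box (TATAAA), looked for in windows of 300 bases around the starts of all 32851 promoters in the table. The core of CRE is contained in CRE. The 9 factors had 8 promoters there, 3 of them of Mef2c. Nr4a1 held 4 matches to the CRE core, all on the opposite strand and all capitalised above, and Cebpb held 3, while Klf2 and Klf4 held 1 each. The CRE core was in 4 of the 8 promoters and in 20.8% of all promoters, and no member promoter held the whole CRE, which 1.79% of all promoters did. Klf2 held a pair of overlapping MEF2 matches between bases -118 and -109 from its start, 1 on each strand, where 21.0% of all promoters held at least 1. Cebpa held a TATA box at bases -30 to -25. The first Mef2c promoter, which is poor in G and C (33.6%, against 66.4% to 74.4% in the other stretches printed), held a STAT, an ISRE and a PU.1 core match, in 8.30%, 10.6% and 28.3% of all promoters. KLF matches were in 5 of the 8 promoters and in 57.5% of all, and TATA box matches in 4 and in 13.6%. Besides that of Cebpa, the TATA box match of Cebpb lay after its start, at bases 22 to 27. Those of the first and second Mef2c promoters were on the opposite strand, at bases -107 to -102 and -22 to -17. C/EBP, MAF and NF-kB matches were in none of the 8 and in 10.8%, 4.67% and 1.68% of all promoters. A match is a run of letters and not a site known to be bound.

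Per length of annotated exon, the factors spanned a wide range of levels. In control B6 BMDMs Cebpa stood highest at 231 ± 16.0 CPM per kb (SD, n = 3, as for all means below), followed by Cebpb at 162 ± 13.1, Spi1 at 139 ± 5.00 and Maf at 78.7 ± 5.02. The other 5 were far lower, at 9.22 ± 3.70 for Klf2, 6.60 ± 0.678 for Cebpd, 4.26 ± 0.636 for Mef2c, 4.06 ± 1.60 for Klf4 and 3.26 ± 1.00 for Nr4a1. Klf2 and Cebpd did not differ beyond their spread, nor did Mef2c, Klf4 and Nr4a1. The order in control SjSS BMDMs was the same, with Cebpb at 132 ± 8.13 and Spi1 at 129 ± 7.51 CPM per kb within the spread of each other. With CpG the order at the top changed: Spi1, at 297 ± 13.9, and Cebpb, at 277 ± 22.4 CPM per kb, led in B6, and Cebpa, at 45.8 ± 1.49, lay level with Cebpd, at 47.0 ± 2.60. With ACs Cebpb led in both strains, at 277 ± 13.1 CPM per kb in B6 and 263 ± 19.7 in SjSS. Mef2c was last per kb. Its place rests on the divisor, 15.7 kb of exons pooled over 31 annotated transcripts, against 1.5 to 8.24 kb for the other factors. Without division by length, Mef2c stood above Klf2, Klf4 and Nr4a1 in control B6 BMDMs, at 66.9 CPM against 17.03, 12.4 and 11.5 CPM. With ACs Mef2c stood above Klf4 and Nr4a1 and below Klf2 in CPM in both strains.

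**Figure D1:**
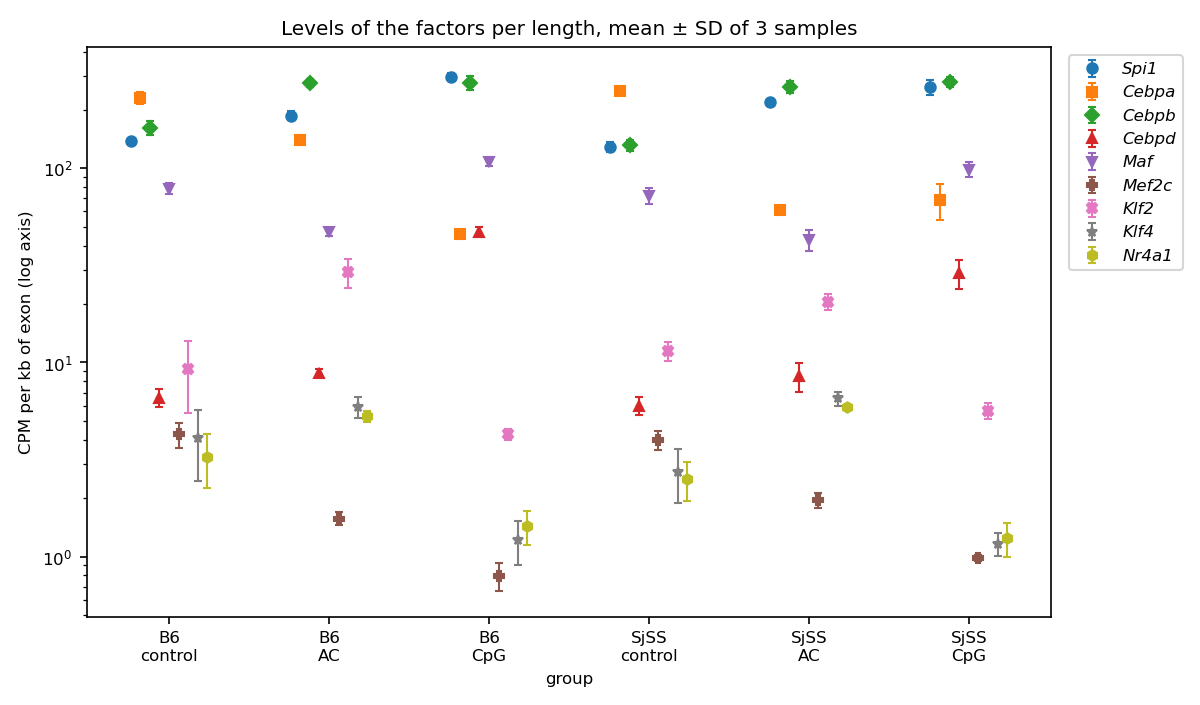
Level of each factor in CPM per kb of exon, on a log axis, in the 6 groups, with points at the mean and bars of 1 SD of 3 samples. Cebpa leads in both control groups, and falls below Spi1, Cebpb and Maf with CpG in both strains.

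The treatments moved nearly all of the factors, and they sorted them into groups by direction. Spi1, Cebpb and Cebpd were higher with both treatments, and Cebpa and Mef2c were lower with both. Maf was lower with ACs and higher with CpG, while Klf2 and Nr4a1 were higher with ACs and lower with CpG in both strains. Klf4 did the same as Klf2 in SjSS, and in B6 its rise with ACs did not pass the test. Differences were tested with edgeR's quasi-likelihood method over all 15789 genes, with Benjamini-Hochberg adjusted p, and a gene was called where the adjusted p was under 0.05 and the log2 fold change over 1.3 in size. The AC and CpG responses of a strain were measured against the same control samples.

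With ACs, 5 factors were higher and 3 lower at the adjusted p alone in B6, where 20.0% of all genes tested were higher and 18.3% lower, and 6 were higher and 3 lower in SjSS, where 28.6% were higher and 29.4% lower. Past the fold threshold as well were 2 factors in B6 (Klf2 and Mef2c; 4.47% of all genes) and 1 in SjSS (Cebpa; 12.9% of all genes). With CpG, 4 factors were higher and 5 lower in each strain, where 28.1% and 29.8% of all genes were higher and lower in B6 and 27.8% and 26.4% in SjSS. CpG took 4 factors past the fold threshold in B6 (Cebpd, Cebpa, Mef2c and Klf4; 12.7% of all genes) and 3 in SjSS (Cebpd, Cebpa and Mef2c; 9.26%). Treated and control samples did not overlap for 8 factors with ACs in B6, beside 49.9% of all genes, and for all 9 with ACs in SjSS (63.9%), CpG in B6 (61.6%) and CpG in SjSS (60.5%). The median size of the log2 change over the 9 factors was 0.72 with ACs in B6 and 1.00 in SjSS, against 0.25 and 0.42 over all genes tested, and 1.19 and 1.08 with CpG, against 0.43 and 0.39.

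**Figure D2:**
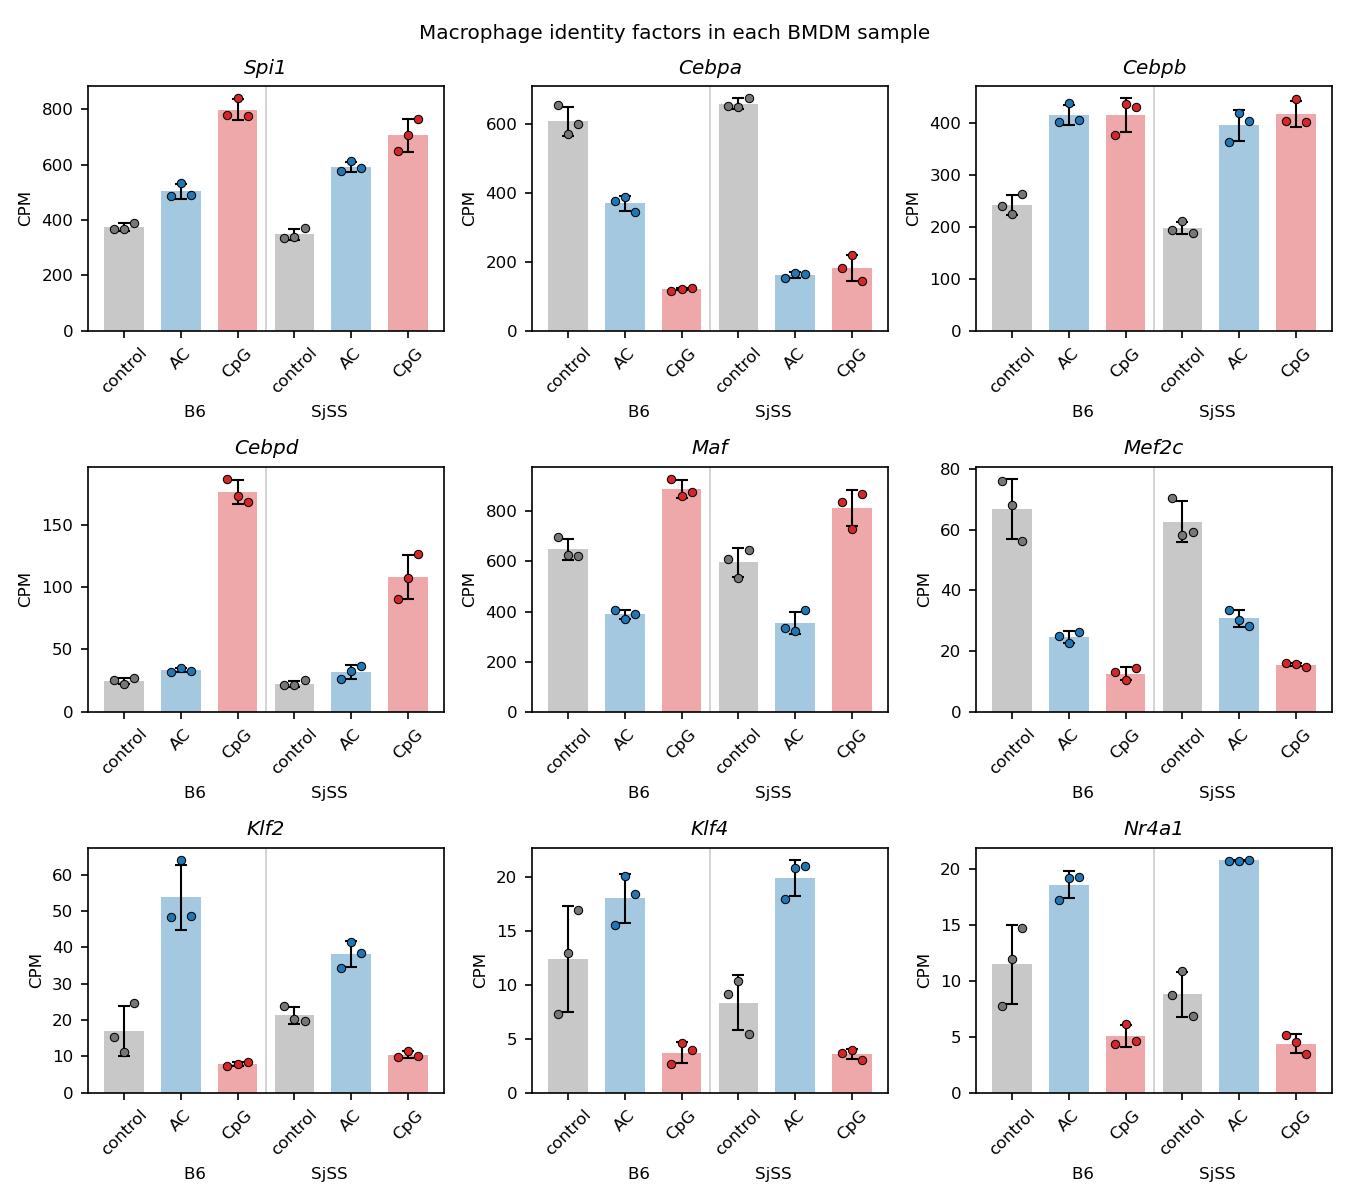
CPM of each factor in every sample, on linear axes from 0, with points for the samples in the order of their replicate numbers, bars at the group means and error bars of 1 SD (n = 3). Cebpa is lower in AC treated SjSS than in AC treated B6 BMDMs in all samples, and Klf2, Klf4 and Nr4a1 are lowest with CpG in both strains.

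Spi1, the gene of PU.1, rose with both treatments. Its levels in control B6 BMDMs were 367, 366 and 390 CPM, in AC treated B6 486, 535 and 490 CPM and in CpG treated B6 780, 843 and 776 CPM. In SjSS they were 335, 339 and 372 CPM in controls, 577, 613 and 588 CPM with ACs and 648, 706 and 766 CPM with CpG. Every treated sample lay above every control of its strain. The increase with ACs was 0.43 ± 0.06 on the log2 scale (SE, adjusted p = 3.32e-05) in B6 and 0.77 ± 0.06 (adjusted p = 5.95e-09) in SjSS. The increase with CpG was 1.09 ± 0.07 in B6 and 1.02 ± 0.07 in SjSS, about 2.14-fold and 2.03-fold.

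Cebpa fell with both treatments, and by how much with ACs depended on the strain. Control B6 BMDMs had 654, 571 and 600 CPM and control SjSS BMDMs 653, 649 and 677 CPM. With ACs the B6 samples had 377, 387 and 345 CPM and the SjSS samples 152, 168 and 163 CPM, and no SjSS value reached the B6 values. With CpG the order turned, with 116, 122 and 124 CPM in B6 and 181, 219 and 143 CPM in SjSS. The log2 change with ACs was -0.72 ± 0.10 in B6 (adjusted p = 1.33e-05) and -2.04 ± 0.10 in SjSS (adjusted p = 3.11e-12), or 1.65-fold and 4.10-fold lower. With CpG it was -2.34 ± 0.10 in B6 and -1.87 ± 0.10 in SjSS, or 5.05-fold and 3.64-fold lower. In SjSS, the AC and CpG treated groups thus came down to means of 161 ± 8.27 and 181 ± 37.7 CPM, within the spread of each other, whereas in B6 the means were 370 ± 21.9 and 121 ± 3.92 CPM.

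Cebpb, which encodes the C/EBP of many inflammatory responses, rose to about the same level under either treatment. Its controls were at 240, 225 and 264 CPM in B6 and 194, 211 and 188 CPM in SjSS. With ACs it stood at 403, 439 and 407 CPM in B6 and 363, 421 and 405 CPM in SjSS, and with CpG at 377, 438 and 433 CPM in B6 and 406, 448 and 403 CPM in SjSS. All 12 treated samples lay above all 6 controls, and the 4 treated groups overlapped. Its log2 change was 0.78 ± 0.08 with ACs in B6, 1.00 ± 0.08 with ACs in SjSS, 0.78 ± 0.08 with CpG in B6 and 1.08 ± 0.08 with CpG in SjSS, with adjusted p of at most 1.82e-07.

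Cebpd, the third C/EBP gene, responded mostly to CpG. Controls held 24.9, 22.1 and 27.2 CPM in B6 and 21.1, 21.1 and 25.2 CPM in SjSS. With CpG the B6 samples reached 187, 173 and 168 CPM and the SjSS samples 90.4, 107 and 126 CPM, and the strains did not overlap. This was a 7.12-fold increase in B6 (log2 2.83 ± 0.13, adjusted p = 5.77e-13) and a 4.8-fold increase in SjSS (2.26 ± 0.12, adjusted p = 1.71e-11). With ACs it reached 31.8, 35.006 and 32.7 CPM in B6 and 25.8, 32.7 and 36.6 CPM in SjSS, which lay above the controls of each strain by 0.42 ± 0.12 and 0.50 ± 0.12 on the log2 scale (adjusted p = 0.00975 and 0.0019). The B6 value missed the threshold without B6 control replicate 2 (adjusted p = 0.0525). CpG thus raised Cebpd in the same cultures in which it lowered Cebpa.

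Maf was the only factor lowered by ACs and raised by CpG in both strains. It was at 696, 628 and 622 CPM in control B6 and 609, 535 and 648 CPM in control SjSS BMDMs. ACs brought it to 406, 368 and 391 CPM in B6 and 333, 321 and 404 CPM in SjSS. CpG brought it to 931, 861 and 876 CPM in B6 and 837, 731 and 869 CPM in SjSS. Within each strain the 3 groups did not overlap. The changes were alike in size, at -0.74 ± 0.09 and -0.76 ± 0.09 on the log2 scale with ACs (adjusted p = 2.17e-06 and 4.91e-07) and 0.46 ± 0.09 and 0.44 ± 0.09 with CpG (adjusted p = 0.000192 and 0.000278), in B6 and SjSS.

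Mef2c fell with both treatments, and furthest with CpG. Controls held 76.3, 68.1 and 56.4 CPM in B6 and 70.5, 58.3 and 59.3 CPM in SjSS. With ACs the values were 25.1, 22.6 and 26.3 CPM in B6 and 33.6, 30.3 and 28.3 CPM in SjSS, and with CpG 13.1, 10.3 and 14.3 CPM in B6 and 15.9, 15.8 and 14.8 CPM in SjSS. The groups of each strain were separate from each other, and with either treatment the SjSS samples lay above the B6 samples. Mef2c was 2.72-fold lower with ACs in B6 (log2 -1.44 ± 0.11, adjusted p = 1.18e-08) and 2.04-fold lower in SjSS (-1.03 ± 0.11, adjusted p = 2.34e-07). It was 5.32-fold lower with CpG in B6 (-2.41 ± 0.12, adjusted p = 3.00e-12) and 4.05-fold lower in SjSS (-2.02 ± 0.12, adjusted p = 4.54e-11).

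Klf2 rose with ACs and fell with CpG. Its controls were uneven in B6, at 15.2, 11.3 and 24.6 CPM, and close in SjSS, at 23.9, 20.2 and 19.6 CPM. With ACs it was at 48.3, 64.1 and 48.7 CPM in B6 and 34.4, 41.5 and 38.3 CPM in SjSS, and with CpG at 7.36, 7.91 and 8.39 CPM in B6 and 9.72, 11.5 and 10.003 CPM in SjSS. All AC treated samples exceeded all controls, and within each strain all CpG treated samples lay below them. The rise with ACs was 3.15-fold in B6 (log2 1.65 ± 0.19, adjusted p = 9.69e-07) and 1.79-fold in SjSS (0.84 ± 0.18, adjusted p = 0.000645). The drop with CpG was 2.17-fold in B6 (-1.11 ± 0.20, adjusted p = 8.14e-05) and 2.04-fold in SjSS (-1.03 ± 0.19, adjusted p = 0.000171).

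Klf4 and Nr4a1 followed each other closely. Klf4 was at 7.24, 13.0 and 16.9 CPM in control B6 and 9.14, 10.4 and 5.46 CPM in control SjSS BMDMs, and Nr4a1 at 7.73, 11.9 and 14.7 CPM and 8.68, 10.8 and 6.83 CPM in the same samples. For both genes the same control was the lowest and the same the highest in each strain. With ACs Klf4 was at 15.5, 20.0 and 18.5 CPM in B6 and 17.98, 20.8 and 21.0 CPM in SjSS. Nr4a1 was then at 17.2, 19.2 and 19.3 CPM in B6, and in SjSS its values of 20.7, 20.7 and 20.8 CPM hardly varied. The AC treated B6 samples overlapped the controls for Klf4, where the log2 change of 0.54 ± 0.24 had an adjusted p of 0.0843 and a 95% interval of 0.04 to 1.05, and the adjusted p was 0.0125 without B6 control replicate 3. Nr4a1 rose by 0.70 ± 0.19 in B6 (adjusted p = 0.00591). In SjSS both rose, Klf4 by 1.27 ± 0.25 (adjusted p = 0.000213) and Nr4a1 by 1.25 ± 0.19 (adjusted p = 1.53e-05), close to the fold threshold, which Klf4 passed without SjSS control replicate 1 (1.36), SjSS control replicate 2 (1.45) or AC treated SjSS replicate 1 (1.34), and Nr4a1 without SjSS control replicate 2 (1.42).

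CpG lowered both genes. Klf4 was then at 2.66, 4.55 and 3.91 CPM in B6 and 3.67, 3.95 and 3.04 CPM in SjSS, and Nr4a1 at 4.35, 6.15 and 4.56 CPM in B6 and 5.13, 4.47 and 3.45 CPM in SjSS. All of these lay below all controls. The log2 change of Klf4 was -1.75 ± 0.27 in B6 (adjusted p = 1.43e-05) and -1.22 ± 0.27 in SjSS (adjusted p = 0.000914), and that of Nr4a1 -1.19 ± 0.20 in B6 (adjusted p = 4.55e-05) and -1.0005 ± 0.21 in SjSS (adjusted p = 0.000445). Among control B6 samples the coefficient of variation was 40.1% for Klf2, 39.4% for Klf4 and 30.6% for Nr4a1, against 3.60% for Spi1, and replicate 3 was the highest for all of these 4 genes.

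**Figure D3:**
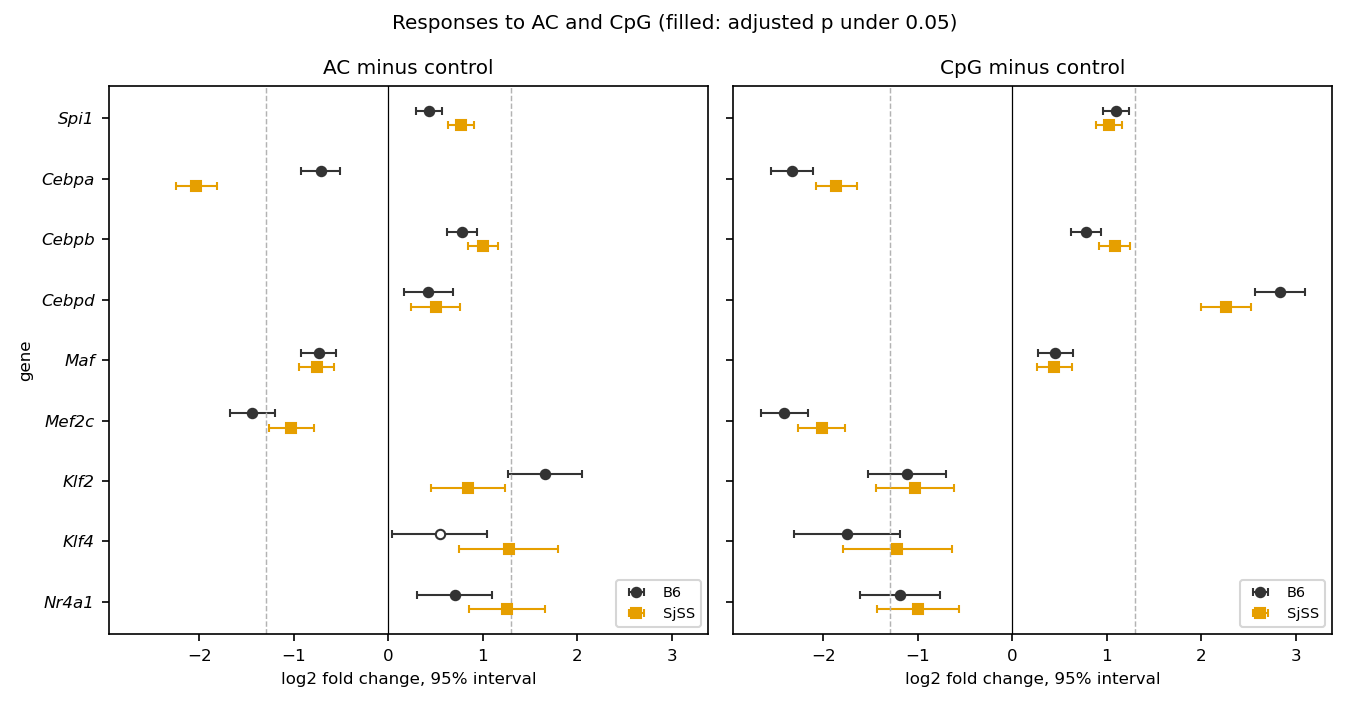
Log2 fold change of each factor with ACs (left) and CpG (right) in B6 and SjSS BMDMs, with 95% intervals, filled where the adjusted p is under 0.05 and with dashed lines at the fold threshold of 1.3. The AC response of Cebpa in SjSS (-2.04) stands apart from that in B6 (-0.72), whereas the intervals of the strains overlap for Maf in both panels.

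Without treatment the strains were close. Of the 9 factors only Cebpb differed at the adjusted p, and it was 1.23-fold lower in SjSS (log2 -0.30 ± 0.08, adjusted p = 0.0103), with no overlap between the strains, as for 34.4% of all genes. The adjusted p was 0.0543 without B6 control replicate 3 and 0.053 without SjSS control replicate 3. Leaving out a B6 control also brought other factors past the test, Klf2 without replicate 3 (log2 0.68, adjusted p = 0.00333) and Klf4 (-0.86, 0.0112) and Nr4a1 (-0.61, 0.0209) without replicate 1. Over all genes, 9.04% were higher and 10.6% lower in SjSS at the adjusted p, and 2.01% also passed the fold threshold, which no factor did. The intervals of the other 8 differences reached from -1.10 (Klf4) to 0.71 (Klf2) on the log2 scale. They were narrow for Spi1, from -0.24 to 0.03, for Cebpa, from -0.09 to 0.32, and for Maf, from -0.30 to 0.07.

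With ACs, 2 factors were higher in SjSS than in B6 and 2 lower at the adjusted p, beside 24.0% and 25.5% of all genes, and none passed the fold threshold, beside 8.93% of all genes. Cebpa was 2.30-fold lower in SjSS (log2 -1.20 ± 0.10, adjusted p = 1.10e-08) and Klf2 1.41-fold lower (-0.50 ± 0.18, adjusted p = 0.0279). Spi1 was 1.18-fold higher (0.23 ± 0.06, adjusted p = 0.00544) and Mef2c 1.25-fold higher (0.32 ± 0.12, adjusted p = 0.0287). The strains did not overlap for these 4 and for Nr4a1 (adjusted p = 0.493), 5 of the 9 factors, beside 60.7% of all genes. The small differences rest on the TMM scaling. Before it, Spi1 had 22344.3, 29146.5 and 26191 counts of totals of 46212600, 57053300 and 53495500 in AC treated SjSS samples. In AC treated B6 samples it had 24453.7, 28264.6 and 21995 of 48488800, 51755400 and 43846600. As a share of these plain totals Spi1 was not higher in SjSS. Without AC treated B6 replicate 2 the adjusted p was 0.153 for Klf2 and 0.118 for Mef2c, and over all alternatives tried it stayed under 0.05 in 8 of 12 for each, with highest values of 0.153 and 0.123. In these groups the fibroblast markers summed to 67.8 to 97.9 CPM in B6 and 177 to 219 CPM in SjSS and the endothelial markers to 25.8 to 28.3 and 48.5 to 56.2 CPM, and the part of these or of the thymocyte markers given above was not tested.

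With CpG, 1 factor was higher and 1 lower in SjSS at the adjusted p, beside 10.2% and 9.57% of all genes, and none passed the fold threshold, beside 2.61%. Cebpa was 1.5-fold higher in SjSS (log2 0.59 ± 0.10, adjusted p = 0.000395), against the direction seen with ACs, and Cebpd was 1.63-fold lower (-0.71 ± 0.12, adjusted p = 0.000247). Spi1 lay lower in every SjSS than in every B6 sample, by 0.18 ± 0.06 on the log2 scale, at an adjusted p of 0.0599, which fell below 0.05 in 5 of 12 alternatives, with DESeq2 among them (0.0147). Mef2c and Klf2 did not overlap between strains either and had adjusted p of 0.0947 and 0.192, which with Spi1, Cebpa and Cebpd made 5 factors without overlap, beside 34.2% of all genes. The fibroblast markers summed to 35.2 to 86.8 CPM in B6 and 140 to 184 CPM in SjSS, and the endothelial markers to 18.4 to 21.4 and 32.7 to 40.7 CPM. The 5 neutrophil markers in the table, of 9 on the list, went the other way. They summed to 11.2 to 13.1 CPM in B6 and 5.63 to 6.01 CPM in SjSS, most of it S100a8. The part of these markers was not tested.

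The interaction compares the response of SjSS with that of B6. For ACs it was positive for 2 factors and negative for 2 at the adjusted p, where 19.6% and 18.3% of all genes were, and 1 factor, Cebpa, was called, as were 7.53% of all genes. Cebpa fell by 1.32 ± 0.14 more in SjSS than in B6 on the log2 scale (95% interval -1.61 to -1.02, adjusted p = 5.90e-07). This lay just past the fold threshold and just under it, at -1.29, with DESeq2 or with DESeq2's size factors, and at -1.27 to -1.298 without B6 control replicate 2, AC treated B6 replicate 2, SjSS control replicate 3 or AC treated SjSS replicate 1, which left 0 factors called, while the adjusted p was at most 4.29e-06 over all alternatives. Klf2 rose less in SjSS, by a difference of -0.81 ± 0.26 (adjusted p = 0.0185), which did not pass without AC treated B6 replicate 2 (adjusted p = 0.0602) or SjSS control replicate 1 (0.0507). Spi1 rose more in SjSS, by 0.34 ± 0.09 (adjusted p = 0.00672). Mef2c fell less in SjSS, by 0.41 ± 0.16, at an adjusted p of 0.0493 that rose above 0.05 in 10 of 18 alternatives, up to 0.150. The values of Spi1 and Mef2c rest on the TMM factors, 0.833 to 0.838 in AC treated SjSS and 1.02 to 1.04 in AC treated B6 samples. They were not tested on plain library totals. Klf4 (0.73, 95% interval 0.01 to 1.45) and Nr4a1 (0.55, -0.01 to 1.11) had adjusted p of 0.107 and 0.114. Both passed without B6 control replicate 1 (1.006 and 0.78, adjusted p = 0.0100 and 0.0120), and Nr4a1 also without SjSS control replicate 2 (0.72, adjusted p = 0.0480). Maf (-0.02, -0.28 to 0.24) had the estimate nearest to 0.

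For CpG no interaction passed for any factor with edgeR on all samples and no block for the replicate number, where 3.23% of all genes were positive and 2.62% negative at the adjusted p and 0.614% were called. The nearest were Cebpd, whose response was 0.57 ± 0.17 lower in SjSS on the log2 scale (95% interval -0.92 to -0.21, adjusted p = 0.0548), and Cebpa, whose response differed by 0.47 ± 0.14 (0.17 to 0.77, adjusted p = 0.0574). Their adjusted p fell to 0.0139 and 0.00152 without CpG treated SjSS replicate 3, and DESeq2 gave 0.0131 and 0.0256. With the replicate number as a block within each strain, 3 factors passed, Cebpd (-0.58, adjusted p = 0.00333), Cebpb (0.31, adjusted p = 0.0406, against 0.106 without the block) and Cebpa (0.45, adjusted p = 0.0440). This block took in all treatments of both strains, although only the control and CpG treated samples of B6 counted as paired. The intervals of Maf (-0.27 to 0.25) and Spi1 (-0.27 to 0.12) lay close around 0, and that of Klf4 was wide (-0.27 to 1.33).

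**Figure D4:**
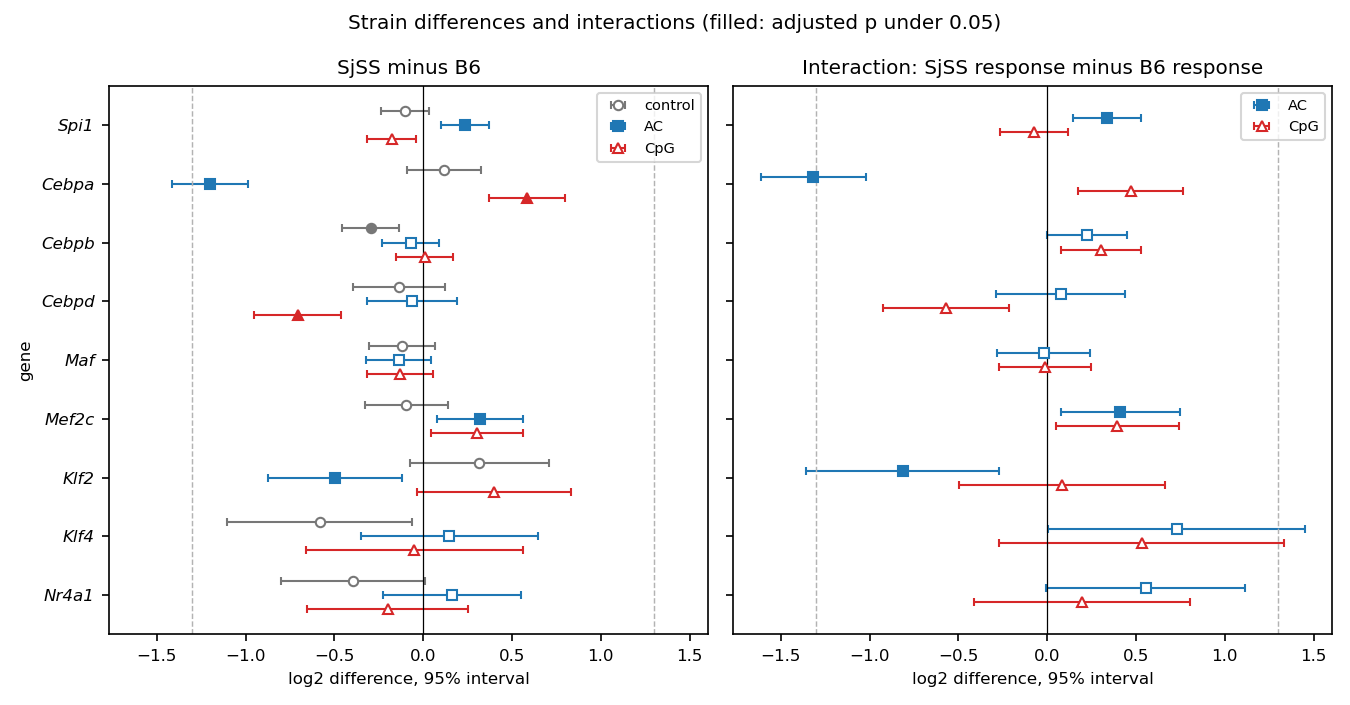
Difference between strains, SjSS minus B6, in each treatment (left) and the interaction, SjSS response minus B6 response (right), on the log2 scale with 95% intervals, filled where the adjusted p is under 0.05. Cebpa is displaced to -1.20 with ACs and to 0.59 with CpG, and its AC interaction of -1.32 is the one value past the dashed threshold.

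Over the 18 samples, the levels of Klf4 and Nr4a1 correlated at r = 0.986 (Pearson, log2 CPM), and each was the gene most like the other among the 12293 genes with a mean of at least 1 CPM. Once each group's mean was taken away, which leaves the variation among replicates, r was 0.904 for this pair. The 18 samples share 6 group means, so that genes which respond alike correlate highly, and these values are given as a description. The genes most like the others were Slc25a10 (r = 0.993) and Fpr1 (0.992) for Spi1, Arhgap19 (0.992) and Mrgpre (0.990) for Cebpa, Rbpsuh-rs3 and Cstb (both 0.969) for Cebpb and Ptpn6 (0.993) and Rras (0.992) for Cebpd. They were Trerf1 (0.964) and Parp1 (0.952) for Maf, Sft2d2 (0.990) and Ivns1abp (0.987) for Mef2c, Capn2 (0.953) and Por (0.945) for Klf2, Crem (0.962) after Nr4a1 for Klf4 and Vwa5a (0.970) after Klf4 for Nr4a1. By Spearman's rho the first gene was the same for Spi1, Maf, Mef2c, Klf2, Klf4 and Nr4a1 and became Dbp for Cebpa, Srxn1 for Cebpb and Emc6 for Cebpd. Crem is a gene of the cAMP response, whose proteins bind CRE sequences, and its part in the levels of Klf4 and Nr4a1 was not tested.

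The list of family relatives of the 9 factors was 30 long, with 27 found in the table and 22 tested. With ACs 9 relatives were higher and 6 lower in B6, with 1 called, and 9 were higher and 8 lower in SjSS, with 8 called, 7 of them higher. With CpG 8 were higher and 7 lower in B6, with 8 called, and 10 were higher and 8 lower in SjSS, with 4 called. The median log2 change of the 22 lay between 0.02 and 0.20 in these 4 responses. The AC interaction was positive for 7, negative for 5 and called for 6, and for CpG it was positive for 4, negative for 1 and called for 1. The strains differed in 7 relatives without treatment, all lower in SjSS, in 16 with ACs and in 8 with CpG. Over all genes, the shares higher and lower were 20.0% and 18.3% with ACs in B6, 28.6% and 29.4% with ACs in SjSS, 28.1% and 29.8% with CpG in B6 and 27.8% and 26.4% with CpG in SjSS, with 4.47%, 12.9%, 12.7% and 9.26% called. For the interactions they were 19.6% and 18.3% with ACs (7.53% called) and 3.23% and 2.62% with CpG (0.614% called), and for the strains 9.04% and 10.6% without treatment, 24.0% and 25.5% with ACs and 10.2% and 9.57% with CpG. The same shares stand beside the counts of the lists that follow.

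The small MAF genes, relatives of Maf which lack an activation domain, included 2 called with ACs in SjSS, of 3 tested. Maff rose by 3.27 ± 0.19 to 67.3 CPM and Mafk by 2.45 ± 0.07 to 221 CPM, and their interactions were 2.23 ± 0.25 and 2.13 ± 0.10. Maff was also called with CpG in both strains, at 1.62 ± 0.17 and 1.84 ± 0.19.

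Among the KLF genes, Klf6 rose with ACs in SjSS by 1.72 ± 0.08, from 223 to 736 CPM, and with CpG in B6 by 1.35 ± 0.08, with an AC interaction of 1.302 ± 0.11 (adjusted p = 3.14e-08). Klf7 was called with CpG in B6 (1.85 ± 0.10), as were Klf9 (-1.69 ± 0.11) and Klf10 (-1.37 ± 0.08), which fell. Klf8 was at 0.595 CPM in control SjSS and 4.64 CPM in AC treated SjSS BMDMs, and under 1 CPM in every other group. Its response to ACs in SjSS was 2.95 ± 0.30 and the interaction 2.82 ± 0.46 (adjusted p = 8.14e-05), and it was also higher in SjSS than in B6 with CpG (1.302 ± 0.35, adjusted p = 0.0119). Of the other C/EBP genes only Cebpg was called, lower with ACs in SjSS (-1.32 ± 0.07). Both tested MEF2 relatives, Mef2a and Mef2d, were lower with ACs in both strains, as Mef2c was, and neither was called.

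Nr4a3, a relative of Nr4a1 with a much lower count, had 2.15 CPM in control B6 and 1.48 CPM in control SjSS BMDMs and rose to 12.5 CPM with ACs in SjSS (log2 3.11 ± 0.41, adjusted p = 2.55e-06), against 3.51 CPM in B6, with an interaction of 2.40 ± 0.57 (adjusted p = 0.0025). It fell with CpG in both strains, by -2.60 ± 0.53 and -1.49 ± 0.52. Of the ETS genes closest to Spi1, Spic, known from red pulp macrophages, rose in all 4 responses, by 2.99 ± 0.15 and 3.50 ± 0.17 with ACs and by 3.45 ± 0.15 and 3.48 ± 0.17 with CpG in B6 and SjSS, and was lower in SjSS than in B6 without treatment (-1.42 ± 0.17), with ACs (-0.92 ± 0.13, adjusted p = 1.48e-05) and with CpG (-1.39 ± 0.13). Spib, known from plasmacytoid dendritic cells and B cells, was at 0.262 CPM in control SjSS BMDMs and rose to 2.84 CPM with ACs and 8.34 CPM with CpG, and in B6 it was at 0.268, 0.500 and 1.48 CPM. Its interactions were 2.40 ± 0.72 with ACs (adjusted p = 0.0134) and 2.39 ± 0.69 with CpG (adjusted p = 0.0481). The summed level of the 5 dendritic cell markers was 2.63 to 3.48 CPM in AC treated and 1.90 to 2.16 CPM in CpG treated SjSS BMDMs, where Spib was highest, and 1.16 to 1.42 and 1.33 to 1.70 CPM in B6. Most of the sum with ACs in SjSS was Xcr1, at a mean of 2.13 CPM, whereas Clec9a was lower there than in controls (-1.04, adjusted p = 0.0359), and Siglech, a marker of plasmacytoid dendritic cells, had at most 5 counts over the 3 samples of any group. Their part in the result was not tested.

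**Figure D5:**
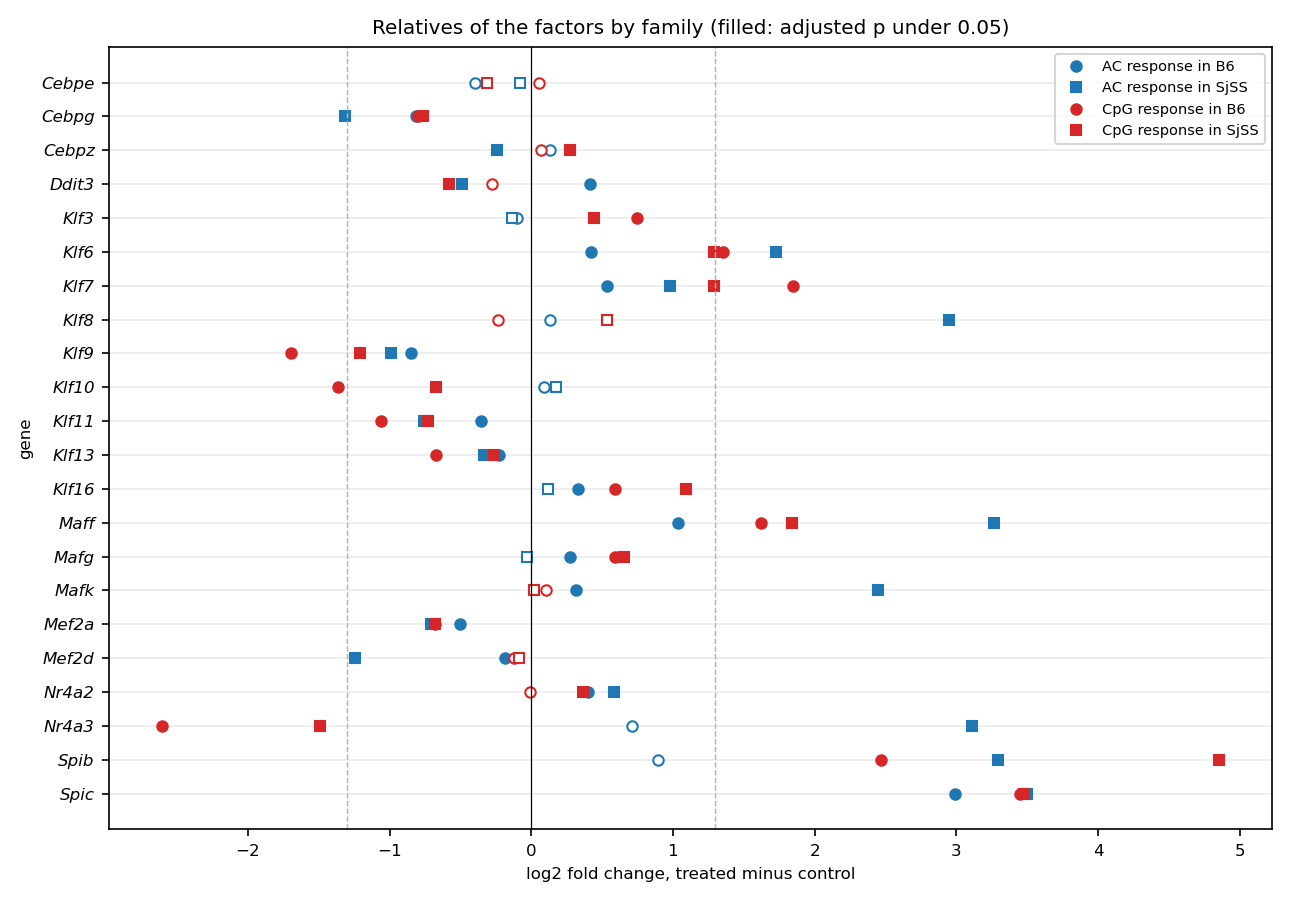
Log2 fold change of the 22 tested relatives of the factors, by family, with ACs (blue) and CpG (red) in B6 (circles) and SjSS (squares), filled where the adjusted p is under 0.05, with dashed lines at the fold threshold of 1.3. Maff, Mafk, Klf8, Nr4a3 and Spib lie far to the right for ACs in SjSS, while their AC responses in B6 lie between 0.13 and 1.04.

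Of 25 partner factors of the myeloid and macrophage lineage, all tested, 7 were higher and 10 lower with ACs in B6 (2 called) and 12 higher and 9 lower in SjSS (9 called), and with CpG 9 were higher and 12 lower in B6 (8 called) and 10 higher and 11 lower in SjSS (5 called). The largest called increase was in Gfi1, a transcriptional repressor active in the granulocyte lineage, for ACs in both strains and for CpG in B6. Its controls held about 0.02 CPM, and it is given without a fold. The next with ACs was Nr1h3, the gene of LXRα, which rose by 2.02 in B6 and 2.03 in SjSS on the log2 scale, from 45.5 and 41.5 CPM to 185 and 170 CPM. The largest called decrease with ACs was that of Id3 in SjSS (-1.69). With CpG it was that of Bhlhe40, a repressor of the clock and of Il10, at -3.76 in B6 and -2.30 in SjSS, and the largest called increase in SjSS was that of Myb (4.02), which was at 0.105 CPM in the controls and 1.82 CPM with CpG. The AC interaction was positive for 7 and negative for 7 partners, with Bach1 (1.52) and Ikzf1 (1.68) called (19.6%, 18.3% and 7.53% of all genes), and the CpG interaction was positive for 4 and negative for 1, with Id2 (1.32) and Bhlhe40 (1.46) called. The strains differed in 3 partners that were higher and 4 that were lower in SjSS without treatment, in 7 and 8 with ACs and in 7 and 6 with CpG.

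Of 30 genes that mark macrophages, all tested, 5 were higher and 13 lower with ACs in B6 (4 called, all lower) and 16 higher and 4 lower in SjSS (5 called). Ccr2, a chemokine receptor of monocytes, had the largest called decrease in all 4 responses, from -1.80 with CpG in B6 to -2.15 with CpG in SjSS. Mrc1 had the smallest called decrease with ACs in B6 (-1.42), and Cd14 the largest called increase with ACs in SjSS (2.10). With CpG, 10 were higher and 11 lower in B6 (5 called) and 9 higher and 13 lower in SjSS (4 called), with Marco, a scavenger receptor, called highest in both, at 2.52 and 2.64. Csf1r, the receptor of M-CSF, had means between 1743 and 2532 CPM in the 6 groups. The AC interaction was positive for 15 of the 30 and negative for none, with Mrc1 (1.36), Fcgr1 (1.41) and Itgax (1.64) called, beside 19.6% positive, 18.3% negative and 7.53% called over all genes, and the CpG interaction was negative for 1 and positive for none. The strains differed in 2 that were higher and 7 that were lower in SjSS without treatment, in 17 and 1 with ACs, beside 24.0% and 25.5% of all genes, and in 1 and 10 with CpG, beside 10.2% and 9.57%. The median log2 value over the 30 was 0.24 for the strains with ACs and 0.28 for the AC interaction. Shifts of this size rest on the TMM factors, 0.833 to 0.838 in AC treated SjSS and 1.02 to 1.04 in AC treated B6 samples. These counts were not made on plain library totals.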

How the data were processed

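Reads were aligned to mm10 by the authors using STAR, Partek's E/M quantification gave estimated counts per gene, and these were deposited without normalization. Of these values 41.1% were not whole, at a tolerance of 1e-06, and all were rounded before any test. Versions of those tools and the strand setting are not given in the sources used here. For the members, counts that were not whole occurred in 15 to 18 samples for Spi1, Cebpa, Cebpb, Cebpd and Maf, in 2 for Mef2c and in 0 for Klf2, Klf4 and Nr4a1.

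Tests were run in edgeR 4.0.16 under R 4.3.3 (filterByExpr, TMM, glmQLFit and glmQLFTest, Benjamini-Hochberg adjustment within each of 9 comparisons). All 18 samples entered 1 fit, with 6 group means. The fold threshold, a log2 fold change over 1.3, follows the methods of the study. CPM use TMM scaled totals, log2 CPM a prior count of 2 and levels per kb the union of GENCODE M21 exons. The standard error is the size of the log2 fold change divided by the square root of F. The study gives 3 mice for each strain, and whether samples with the same number share a mouse is not stated. Deviations of same-numbered samples correlated at over 0.1 in every pair of control and CpG treated B6 samples (0.260, 0.264 and 0.137), which counts as paired there. No other pair of groups had all its values over 0.1. Over the 18 same-numbered pairs within a strain the values were 0.0198 to 0.264, with 9 over 0.1. Over the 9 between strains they were -0.0721 to 0.0155. Whether other groups of a strain are paired cannot be told from these values. Alternatives were DESeq2 1.42.0, its size factors in edgeR, other filters on low counts and fold thresholds, fits of the compared groups alone, a block for the replicate number and each sample left out in turn. The block was set within each strain for responses and interactions, and by number across both strains for the strain differences. The scripts were tested on simulated data. Figures were made with matplotlib 3.10.9 in Python 3.11.15. Promoters came from RefSeq, and 6 of the 9 members had an entry.

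The members and the lists of relatives, partners and markers were chosen with earlier results of these data known. Genes were named by rule: the 9 members, every relative called in any comparison, the called genes with the highest and the lowest signed log2 fold change of each other list in each response, the genes of marker sums, and the 2 genes most like each member. Csf1r, Mef2a, Mef2d, Nr4a1's promoter and the genes called in interactions were added after their values were seen. In the list of relatives, 1 gene is not reported here.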

Additional observations from a re-analysis of the deposited data

Results flagged for a closer look

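The response to ACs differed between strains, by the test of the interaction, for 4 of the 9 factors, 2 positive and 2 negative, beside 19.6% and 18.3% of all genes. The interaction on the log2 scale, SjSS response minus B6 response, was -1.32 for Cebpa, 0.34 for Spi1, 0.41 for Mef2c and -0.81 for Klf2. Cebpa fell to 161 ± 8.27 CPM in AC treated SjSS and to 370 ± 21.9 CPM in AC treated B6 BMDMs from controls of 659 ± 15.2 and 609 ± 42.2 CPM (SD, n = 3). Spi1 reached 593 ± 18.3 CPM in SjSS and 504 ± 27.2 CPM in B6, and Klf2 38.0 ± 3.56 and 53.7 ± 9.03 CPM. The higher level of Spi1 in SjSS is seen after TMM scaling and not as a share of the plain library totals. Mef2c ended at 30.7 ± 2.71 CPM in SjSS and 24.7 ± 1.92 CPM in B6, and its adjusted p of 0.0493 was the closest to the threshold and rose above it in 10 of 18 alternatives. No interaction of strain and CpG passed with edgeR on all samples and no replicate block.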

How the results depend on the processing

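With 3 samples in a group the error of an interaction is larger than that of either response, and values for Klf2, Klf4 and Nr4a1 rest on uneven B6 controls. With no fold threshold, the factors counted were 8 for ACs in B6, 9 for ACs in SjSS, 9 for CpG in B6, 9 for CpG in SjSS, 1 for the strains without treatment, 4 with ACs, 2 with CpG and 4 for the AC interaction. With a log2 fold change over 1 they were 5 for ACs in SjSS, 7 for CpG in B6, 8 for CpG in SjSS and 1 for the strains with ACs. With DESeq2's size factors or DESeq2's own test the AC interaction left 0 called, with Cebpa at -1.29. No fit on plain library totals was run. Leaving out a sample at a time gave 0 to 1 called for the AC interaction and 1 to 3 for ACs in SjSS, and 4 to 5 and 3 to 4 for CpG in B6 and SjSS.

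A few estimates close to 0, none past the test, changed sign. The strain difference with CpG of Cebpb became -0.0151 with DESeq2's size factors and -0.0154 with DESeq2, the AC interaction of Maf 0.00545 and 0.00704, and the CpG interaction of Maf 0.000162 with no filter on low counts. Over fits that each left out 1 sample, the ranges were -0.203 to 0.0119 for Mef2c between untreated strains, -0.176 to 0.0649 for Cebpd between strains with ACs, -0.0572 to 0.0468 for Cebpb and -0.25 to 0.114 for Klf4 between strains with CpG, -0.128 to 0.0429 for Maf and -0.0384 to 0.203 for Cebpd in the AC interaction, and -0.0846 to 0.0582 for Maf, -0.276 to 0.303 for Klf2 and -0.0320 to 0.415 for Nr4a1 in the CpG interaction. All other member results kept their direction.

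The replicate number as a block changed 0 of 9 counts of calls and 0 of 81 member calls. At the adjusted p alone it moved 7 of 81 results across 0.05, and all became smaller: Klf4 with ACs in B6 (0.60, adjusted p = 0.00801), Spi1 between strains with CpG (0.0365), Klf4 (0.0271) and Nr4a1 (0.0469) in the AC interaction, and Cebpa (0.0440), Cebpb (0.0406) and Cebpd (0.00333) in the CpG interaction. Of the groups in these comparisons, control and CpG treated B6 samples count as paired, which bears on the CpG interaction. Whether other samples of a strain with the same number share a mouse is not known. Between the strains, samples share only a number.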
